A study of Drosophila melanogaster with 6 samples.

Results

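Cells rejoin broken DNA ends with a small set of proteins, and the 6 genes described here encode the core of that set in *Drosophila*: *Irbp* and *Ku80*, the Ku70 and Ku80 subunits of the ring that clamps a broken end, *Lig4* (listed as *DNAlig4* in the annotation), the DNA ligase that seals it, and *mre11*, *rad50* and *nbs*, the subunits of the Mre11-Rad50-Nbs (MRN) complex. They were chosen by these symbols, each matched to 1 gene identifier, out of 17559 genes in the count table. All 6 passed the filter on low counts that left 7942 genes for testing. RNA was compared between wing discs, the larval epithelia that form the adult wing, in 3 libraries labelled *Nup98-96* RNAi and 3 labelled *white* RNAi.

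Both groups carried UAS-P35, *ap*-Gal4, UAS-GFP and *tub*-Gal80TS, and differed in the hairpin, UAS-Nup98 RNAi HM05048 (called knockdown here) or UAS-white RNAi JF01540 (called control). P35 is a viral inhibitor of caspases, and both groups expressed it. *ap*-Gal4 drives the UAS constructs, the hairpin and P35 among them, in the dorsal part of the disc alone. Gal80TS kept them off at 18°C for 4 days and released them at 28°C for 72 h, until discs were taken from wandering late larvae. Each library was made from polyadenylated RNA of 40 pooled discs, so that undriven ventral cells are part of every value. Because the libraries are bulk RNA, fewer cells of a type and less RNA per cell cannot be told apart.

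Ku is a heterodimer whose subunits are stable only together, and it starts classical non-homologous end joining. The ligase works with a scaffold protein of the XRCC4 family, and flies lack the DNA-dependent protein kinase that binds Ku in vertebrates. The MRN complex, with its nuclease Mre11, its ATPase Rad50, which tethers ends, and its adaptor Nbs, binds broken ends too, starts their resection toward homologous recombination and recruits the ATM kinase (*tefu* in flies). In flies MRN and ATM also keep telomeres from fusing. *Irbp* was named as a protein that binds the inverted repeats at the ends of the *P* element, a transposon whose excision leaves double-strand breaks.

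The libraries held between 70342787 and 110330112 counts. The RNA of the target, *Nup98-96*, lay between 316 and 335 CPM (the count relative to library size, scaled by TMM) in control and between 302 and 317 CPM in knockdown libraries (not called, log2 fold change -0.07, edgeR quasi-likelihood F test, adjusted p = 0.118). Whether reads of the hairpin entered these counts was not tested, and the group names follow the labels. *w*, the target of the control hairpin, lay between 484 and 572 CPM in control and between 859 and 1069 CPM in knockdown libraries. Control replicate 1 stood apart, with a summed level of 3477 CPM for 6 fat body markers against 20.9 and 59.0 CPM in the other control libraries. Of 4 measured markers of the wing disc (*nub*, *vg*, *Dll* and *hth*), all were present, with a sum of 1463 to 1597 CPM in control and 877 to 894 CPM in knockdown libraries.

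All 6 genes were higher in the libraries labelled knockdown, by 2.64-fold (*mre11*) to 4.57-fold (*Irbp*), and in each of them every knockdown library lay above every control library. Genes with an adjusted p below 0.05 and a log2 fold change beyond 0.5 in either direction are described as called. Of all 7942 genes tested, 15.3% were called higher and 11.2% lower, and 36.6% had every knockdown library above every control library. The median log2 fold change of the 6 genes was 1.68, beside 0.00140 over all genes tested. None of the 6 was called lower in edgeR, DESeq2 or voom, and 0 had a lower level at an unadjusted p below 0.05.

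**Figure D1:**
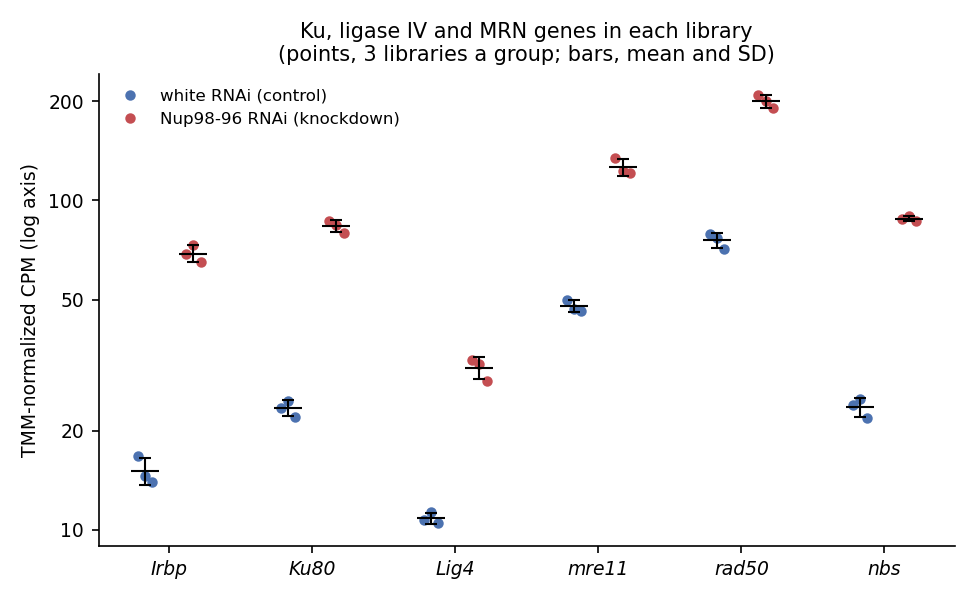
Level of each of the 6 genes in each library, in TMM-normalized CPM on a log axis. Points are libraries (3 control, blue, and 3 knockdown, red), and bars are the mean and SD. For each gene the red points lie above the blue points, and the points of a group lie close together.

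*Irbp*, the Ku70 gene (FBgn0011774, chromosome 3R of BDGP6, 11410047 to 11412440, plus strand), had 16.7, 14.5 and 14.0 CPM in the control and 68.9, 73.1 and 64.8 CPM in the knockdown libraries. The groups lay far apart, with little spread inside each. The mean was 15.1 ± 1.45 CPM in control and 68.9 ± 4.14 CPM in knockdown libraries (SD, n = 3 each), so that *Irbp* rose by 2.19 on the log2 scale (SE, the standard error, 0.08, edgeR quasi-likelihood F test, adjusted p = 1.91e-06). This was the highest fold change of the 6 genes, and 2.90% of all genes tested had a higher one. These values rest on between 1411 and 7403 counts per library.

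*Ku80* (FBgn0041627, chromosome 2L, 15768630 to 15771159, minus strand), whose product pairs with Ku70, had 23.5, 24.6 and 22.1 CPM in the control and 86.4, 84.4 and 79.8 CPM in the knockdown libraries. Its groups did not overlap either. It rose 3.57-fold, from 23.4 ± 1.29 to 83.6 ± 3.40 CPM (SD, n = 3 each), with a log2 fold change of 1.84 (SE 0.05, edgeR quasi-likelihood F test, adjusted p = 9.72e-07). Both subunits of the Ku ring were therefore called in the same direction.

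*Lig4*, the ligase gene (FBgn0030506, X chromosome, 13664584 to 13667811, minus strand), was the lowest of the 6 in every library. It had 10.7, 11.3 and 10.5 CPM in the control and 32.8, 32.0 and 28.3 CPM in the knockdown libraries. It rose 2.86-fold (log2 fold change 1.52, SE 0.07, edgeR quasi-likelihood F test, adjusted p = 4.38e-06). The ligase step of end joining thus had a smaller fold change than either Ku gene, and the difference between these fold changes was not tested.

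Among the MRN genes, *rad50*, which encodes the long coiled-coil ATPase (FBgn0034728, chromosome 2R, 22421013 to 22425482, plus strand), had 78.9, 76.9 and 71.2 CPM in the control and 209, 200.2 and 191 CPM in the knockdown libraries. *mre11*, the nuclease gene (FBgn0020270, chromosome 2L, 11282090 to 11284335, plus strand), had 49.96, 46.8 and 46.3 CPM in the control and 134, 122 and 121 CPM in the knockdown libraries. The 2 genes moved almost alike: *rad50* had a log2 fold change of 1.40 (SE 0.05) and *mre11* one of 1.40 (SE 0.05), with adjusted p = 2.14e-06 and 2.25e-06 in the edgeR quasi-likelihood F test. These were the lowest fold changes among the 6 genes, and 5.43% of all genes tested had one at least as high as that of *mre11*.

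*nbs*, the gene of the adaptor that binds ATM (FBgn0261530, chromosome 3L, 9720414 to 9723194, minus strand), had 23.9, 24.9 and 21.8 CPM in the control and 87.7, 89.4 and 86.5 CPM in the knockdown libraries. The knockdown libraries agreed closely, within an SD of 1.497 CPM. It rose 3.73-fold (log2 fold change 1.90, SE 0.06, edgeR quasi-likelihood F test, adjusted p = 8.90e-07). *nbs* was thus closer in fold change to *Ku80* than to its partners.

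**Figure D2:**
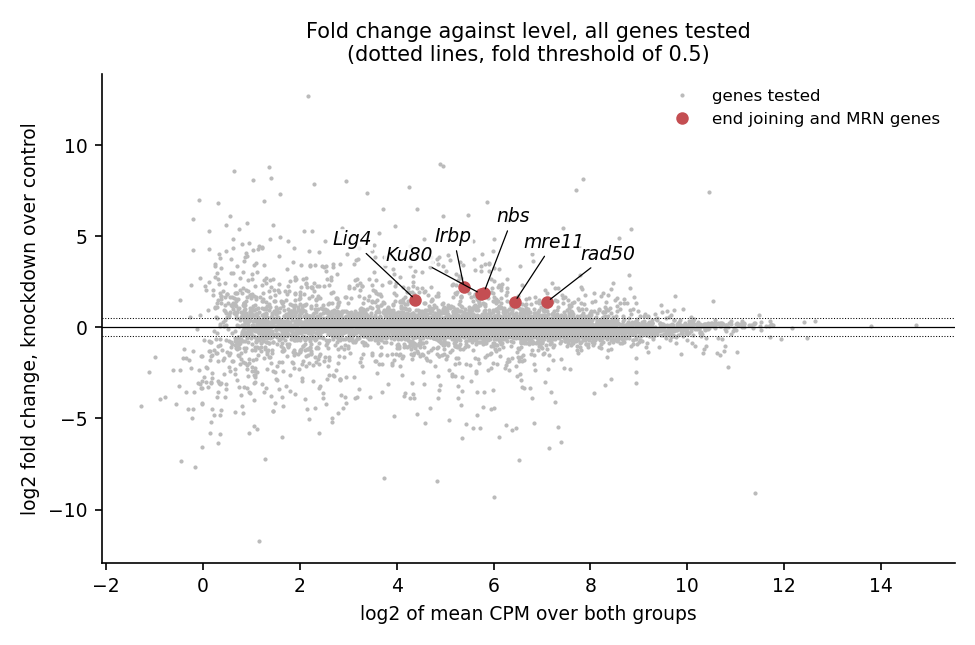
Log2 fold change (knockdown over control) of every gene tested against the log2 of its mean CPM over both groups. Gray points are the 7942 genes tested, red points the 6 genes named, and dotted lines the fold threshold of 0.5. The 6 genes lie between 1.40 and 2.19 at intermediate levels, above the bulk of the genes and below the most extreme ones.

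The 6 genes shared their lowest library within each group. Control replicate 3 had the lowest level of all 6 among the control libraries, and knockdown replicate 3 had the lowest level of all 6 among the knockdown libraries. Over all genes tested, replicate 3 was lowest in control for 32.7%, in knockdown for 32.2% and in both groups for 12.4%. The control part of this pattern was not particular to the 6 genes. Each tested replication fork gene listed below also had its lowest control level in replicate 3, though none had its lowest knockdown level there. The summed level of the 6 genes was 204, 199 and 186 CPM in the control and 619, 602 and 571 CPM in the knockdown libraries.

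Subunits of one complex can be compared once counts are divided by length, here by the exonic bases of each gene, from 2013 for *mre11* to 4072 for *rad50*. In control libraries the level per kilobase was highest for *mre11* (23.7 ± 0.988 CPM per kilobase) and *rad50* (18.6 ± 0.977), followed by *Ku80* (10.2 ± 0.559), *nbs* (9.06 ± 0.606), *Irbp* (7.03 ± 0.676) and *Lig4* (3.56 ± 0.141; SD, n = 3 each). Of the neighbours in this order, *Ku80* and *nbs* overlapped in their libraries, 9.58 to 10.7 against 8.40 to 9.59 CPM per kilobase. In knockdown libraries the order was the same, with 62.5 ± 3.66 for *mre11*, 49.1 ± 2.19 for *rad50*, 36.3 ± 1.48 for *Ku80*, 33.8 ± 0.576 for *nbs*, 32.1 ± 1.93 for *Irbp* and 10.2 ± 0.796 CPM per kilobase for *Lig4* (SD, n = 3 each). There *nbs* and *Irbp* overlapped, 33.3 to 34.4 against 30.2 to 34.01, and *Ku80* and *nbs* did not. The ranking was therefore kept while every level rose.

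The balance between partners was measured as the ratio of these levels inside each library, which no scaling between libraries can change. *Irbp* over *Ku80* was 0.764, 0.632 and 0.680 in the 3 control and 0.854, 0.928 and 0.871 in the 3 knockdown libraries. Every knockdown library was nearer to equal levels of both Ku RNAs than every control library. The difference in log2 ratio was 0.36 (exact permutation test over libraries, two-sided, p = 0.10, adjusted p = 0.133 over 4 ratios), and 0.10 is the smallest p that 3 against 3 libraries allow.

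*nbs* over *mre11* was 0.370, 0.412 and 0.365 in the 3 control and 0.506, 0.566 and 0.555 in the 3 knockdown libraries. *nbs* over *rad50* was 0.474, 0.508 and 0.480 in the 3 control and 0.659, 0.700 and 0.710 in the 3 knockdown libraries. In both ratios the groups did not overlap, with differences of 0.50 and 0.50 on the log2 scale (exact permutation test, two-sided, p = 0.10 and adjusted p = 0.133 for each). *mre11* over *rad50*, in contrast, overlapped between the groups, with means of 1.28 ± 0.0417 in control and 1.27 ± 0.0328 in knockdown libraries (SD, n = 3 each; exact permutation test, two-sided, p = 0.90). In the knockdown libraries the RNA of the adaptor was higher relative to that of its partners, by more than the spread between libraries. No difference was detected between the nuclease and the ATPase. With so few libraries none of these permutation tests could pass 0.05. The *nbs* ratios are not independent, because they restate the same gap in log2 fold change, 1.90 for *nbs* against 1.40 for each partner. How often other pairs of genes lie apart in this way was not tested.

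**Figure D3:**
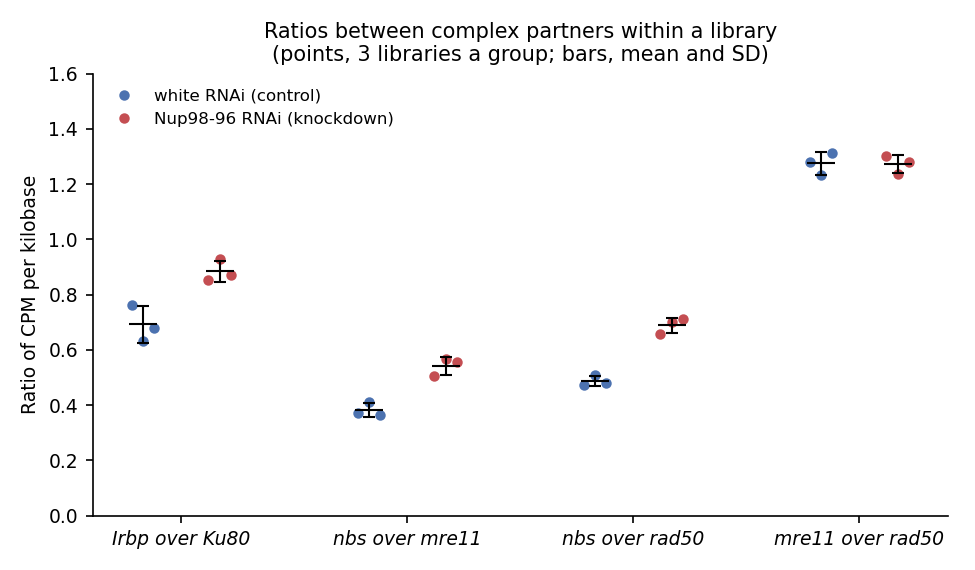
Ratio of the levels per kilobase of 2 genes within each library, for *Irbp* over *Ku80* and for the 3 pairs of MRN genes. Points are libraries (blue, control, and red, knockdown), and bars are the mean and SD of 3. The groups are apart in the first 3 ratios and overlap near 1.28 in *mre11* over *rad50*.

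The 6 genes lie at separate places in the genome, and 13 other genes are annotated within 500 bases of them, of which 11 were in the count table and 9 were tested. Of these 9, 1 was called higher, 1 lower and 7 were not called. Beside *Irbp*, the prefoldin subunit gene *mgr* had 0.10 (log2 fold change) and the importin gene *Ipo9* one of 0.05. Beside *Ku80*, the zinc finger gene *wek* had a log2 fold change of -0.07. *CG31826*, also beside *Ku80*, was at 0.0296 CPM or less in every library and was not tested. The tested neighbours of both Ku genes were therefore not called.

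*nbs* and *CG14174*, on the other strand, share 51 exonic bases, 2.0% of those of *nbs*. Counting was without strand, so reads there cannot be assigned to one of them. *CG14174* had 6.89 to 7.28 CPM in control and 7.98 to 9.07 CPM in knockdown libraries (not called, log2 fold change 0.24), and on the far side of *nbs* the Integrator subunit gene *defl* had a log2 fold change of 0.12. *mre11* shares 9 bases with *Osi21*, which was not analysed here, and its other neighbour *Ppt2* had a log2 fold change of -0.22 and was not called.

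The called neighbours were *NFAT*, a transcription factor gene beside *Lig4*, and *CG10344*, beside *rad50*. *NFAT* fell from 174 ± 14.6 to 107 ± 5.42 CPM (SD, n = 3 each; log2 fold change -0.71, edgeR quasi-likelihood F test, adjusted p = 0.000135), opposite to *Lig4*, whose other neighbour *CG11164* had a log2 fold change of 0.26. *CG10344* rose from 1.59 ± 0.434 to 2.88 ± 0.355 CPM (SD, n = 3 each; log2 fold change 0.86, edgeR quasi-likelihood F test, adjusted p = 0.0197), and its call was lost without control replicate 2 or knockdown replicate 3 and in edgeR's glmTreat. The snoRNA gene *snoRNA:Irbp-a*, inside an intron of *Irbp*, was at 0.0659 CPM or less in every library and was not tested. *CG46442*, on the same strand as *rad50* and 93 bases from it, was not in the count table.

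**Figure D4:**
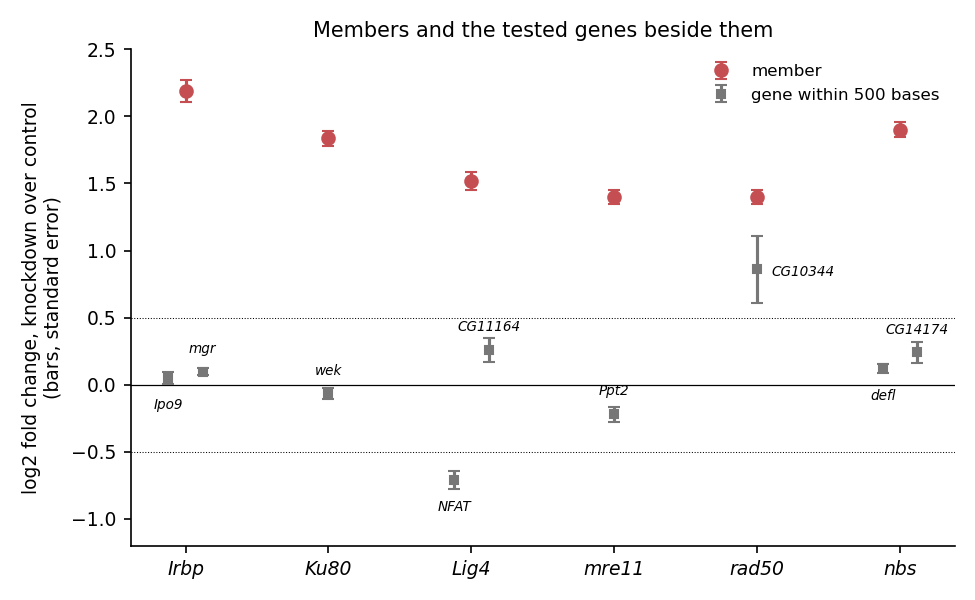
Log2 fold change (knockdown over control) of each of the 6 genes (red circles) and of the 9 tested genes within 500 bases of them (gray squares), with standard errors. The neighbours lie between -0.71 and 0.86, each below the gene it stands beside.

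The genes of most like pattern were sought among the tested genes that the annotation names. Likeness was the root mean square difference of centred log2 CPM over the 6 libraries, a measure that the difference between the groups dominates. For *mre11* the nearest gene was *rad50* (0.0348), and for *Ku80* and *nbs* each was the nearest of the other (0.0448). *rad50* lay nearest to *RPA1* (0.0199), the large subunit of the complex that coats single-stranded DNA, followed by the titin gene *sls* (0.0208) and *mre11*. Thus 4 of the 6 genes had another of the 6 among their 3 nearest. Because the measure follows the fold changes, this count largely restates how alike those were. How often other genes of like fold change show the same was not tested.

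The next nearest to *Ku80* were *Ctu2*, of tRNA thiolation, and *Irbp18*, a bZip gene named like *Irbp* for binding *P* element repeats. *Irbp18* had a log2 fold change of 1.80 and rose from 11.2 to 38.8 CPM on average. After *Ku80*, *nbs* was nearest to *ver*, a telomere capping gene, and *Ugt302C1*. *Irbp* itself was nearest to the myosin light chain gene *Mlc2* (0.0550), *CG8066* and *CG18213*, and *Lig4* to *obe*, the ribosome factor gene *eIF6* and *Ttc19*. *mre11* also had *CG18596* and *eIF6* among its 3 nearest.

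The other lists of repair genes held both called and uncalled members. Their counts stand beside 15.3% of all genes tested called higher and 11.2% called lower, and no list was tested as a set. Of 8 tested genes of other steps of end joining, 4 were higher, with a median log2 fold change of 0.44. Lower genes were 0 in edgeR, DESeq2 and voom (5 higher and 0 lower at an unadjusted p below 0.05). *CG12728*, which RefSeq lists under the synonyms XLF1 and XRCC4, had 16.6, 16.9 and 16.03 CPM in the control and 39.9, 39.4 and 34.5 CPM in the knockdown libraries. Which of these it encodes was not settled, so it is only a candidate partner of the ligase. Its log2 fold change was 1.20 (edgeR quasi-likelihood F test, adjusted p = 9.11e-06), beside 1.52 for *Lig4*. The end-cleaning enzyme genes of this list were split between called and not called. *gkt*, which encodes the phosphodiesterase that frees DNA ends from bound topoisomerase, had a log2 fold change of 1.10. *XRCC1* and *Parp1*, of single-strand break repair and alternative end joining, had 0.93 and 0.64 and were chosen after their values were seen. *PolQ*, the polymerase of alternative end joining, had 0.07 and was not called.

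Of 18 tested genes of resection and homologous recombination, the route that MRN opens, 4 were higher and 14 were not called, with a median log2 fold change of 0.22. None was lower in edgeR, DESeq2 and voom (10 higher and 0 lower at an unadjusted p below 0.05). *RPA1* had a log2 fold change of 1.41 and the nuclease gene *mus81* one of 0.79, and *mus81* shares exonic bases with a gene on the other strand. The helicase gene *RecQ5*, chosen after its value was seen, had 0.52 and also shares exonic bases with other genes. Its call was lost in glmTreat and without knockdown replicate 2 (0.49), while 6 genes of the list were higher without control replicate 1. *CtIP*, the cofactor of MRN in resection, had a log2 fold change of 0.25 and was not called.

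Of 11 tested genes of damage signalling, 1 was higher and 1 was lower (3 higher and 2 lower at an unadjusted p below 0.05). *p53*, which encodes the transcription factor of the damage response, rose from 14.9, 13.8 and 13.8 CPM in the control libraries to 37.7, 39.4 and 37.0 CPM in the knockdown libraries (log2 fold change 1.43, edgeR quasi-likelihood F test, adjusted p = 1.38e-06), and it shares exonic bases with an antisense RNA gene. The checkpoint kinase gene *grp* fell (log2 fold change -0.61), a call that glmTreat did not make. *grp* shares exonic bases with 3 genes, among them *squ* on the same strand. *tefu*, the ATM kinase gene that MRN acts with, had 171 to 172 CPM in control and 166 to 182 CPM in knockdown libraries (log2 fold change 0.00201) and was not called.

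Of 5 tested genes of telomere capping, the other role of MRN in flies, 1 was higher, *ver*, with 6.99, 6.53 and 6.17 CPM in the control and 23.9, 25.5 and 23.4 CPM in the knockdown libraries (log2 fold change 1.89). *ver* shares exonic bases with genes on the other strand. None was lower in edgeR, DESeq2 and voom (2 higher and 2 lower at an unadjusted p below 0.05). *cav*, which encodes the cap protein HOAP, had a log2 fold change of 0.14 and also shares exonic bases with genes on the other strand. *moi*, *Rad1* and *mus312*, which share all their exonic bases with another gene, were at 0 in every library and were not tested.

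Of 8 tested genes of the replication fork list, 0 were called in either direction in edgeR, DESeq2 and voom. At an unadjusted p below 0.05, 3 were higher and 0 lower. Their log2 fold changes lay between -0.13 (*Mcm7*) and 0.36 (*PCNA*). *Mcm3* was not matched, and *RPA1*, which was higher (log2 fold change 1.41), was counted with homologous recombination. The list is therefore not a measure of all replication genes.

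**Figure D5:**
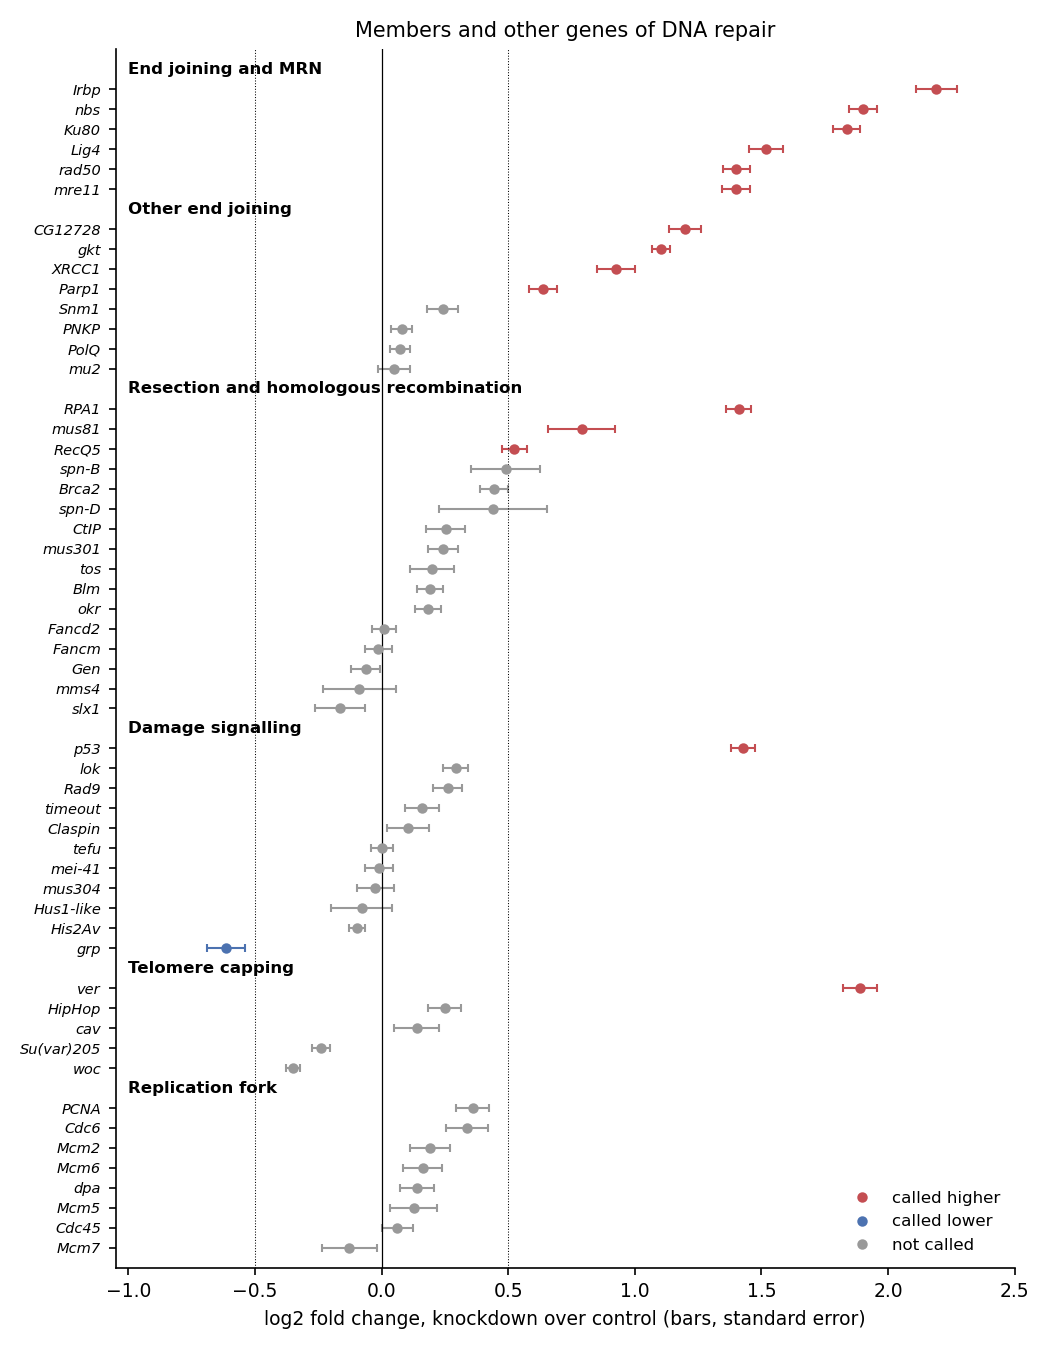
Log2 fold change (knockdown over control) with its standard error for the 6 genes and tested members of 5 further lists, without the genes not reported here. Red marks genes called higher, blue called lower and gray not called, and dotted lines mark the fold threshold of 0.5. Outside the 6 genes, *ver*, *p53* and *RPA1* lie furthest to the right, and the genes of the replication fork list lie between -0.13 and 0.36.

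Other measures moved with the groups. Of 7 tested ecdysone response genes 5 were lower and 1 higher. Their summed level was 5043 to 8866 CPM in control and 519 to 560 CPM in knockdown libraries. *ImpE2* gave most of the control sums, at 5425 CPM on average in control and 9.84 CPM in knockdown libraries. The higher gene was *ftz-f1* (log2 fold change 3.10), at 12.5 CPM on average in control and 107 CPM in knockdown libraries. *ftz-f1* shares exonic bases with a gene on the same strand. All 4 wing disc markers and 3 of 4 myoblast markers were lower (myoblast sums of 145 to 170 against 92.0 to 102 CPM), and 3 of 4 trachea markers were higher and 1 lower (908 to 1192 against 1556 to 1713 CPM). The lower one was *trh*, at 82.9 CPM on average in control and 46.0 CPM in knockdown libraries, and *verm* gave most of the trachea sums. Of 6 measured hemocyte markers 3 were tested, and 1 of these was lower, the phagocytic receptor gene *eater* (log2 fold change -1.24, edgeR quasi-likelihood F test, adjusted p = 0.0259). *NimC1* and *He*, too low to be tested, had less in every knockdown library than in any control library (at most 0.298 against at least 0.620 CPM), and no marker was at 0. The sums of the 6, to which *Hml* and *PPO2* gave most, overlapped, at 23.0 to 35.6 CPM in control and 18.0 to 40.1 CPM in knockdown libraries. The part of developmental stage and of these cells in the rise of the 6 genes was not tested. Without control replicate 1, the library with the fat body signal, the log2 fold changes were 2.27 for *Irbp*, 1.84 for *Ku80*, 1.51 for *Lig4*, 1.43 for *mre11*, 1.43 for *rad50* and 1.91 for *nbs*, and all 6 calls were kept.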

How the data were processed

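RNA of wing discs was measured in 3 libraries per group. The authors aligned reads to BDGP6 with Rsubread and counted them per gene with featureCounts, and the deposited values are whole-number counts that are not normalized. Strand was not used in counting, while the labels call the libraries directional. The authors' deposited table of their own comparison (fold changes and p-values from HTSFilter, TMM, voom and limma) was not used. No reference sequence was used. Some genes of the homologous recombination list are counted in its totals but not reported here.

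Genes were named and placed by a BDGP6 annotation for 17253 of 17559 identifiers. Of 4884 genes with positions in both annotations, 4882 overlapped on the same chromosome. Of 101 list symbols, 11 were not matched (among them *ap*, *br* and *RPA2*) and 5 were matched by a RefSeq synonym. Genes were tested with edgeR 4.0.16 in R 4.3.3 (glmQLFit and glmQLFTest, TMM scaling, Benjamini-Hochberg adjustment over all genes tested). A Jaccard similarity filter in the form of HTSFilter, with thresholds from 1 to 200 normalized counts in 100 steps and a loess span of 0.3, chose the upper end, 200. Standard errors were derived from the fold change and its F statistic. Likeness of pattern used log2 CPM with a prior count of 2. The gene tests of edgeR, DESeq2 and voom were checked on simulated counts, drawn independently for each library. The other tests, among them the permutation test of the ratios, were not.

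Members and lists were chosen with earlier results of these data known. Named are the members, the genes within 500 bases of them, the 3 genes of most like pattern for each, both RNAi targets, and in each repair list up to 2 called genes with the highest and the lowest fold change. *PolQ*, *CtIP*, *tefu*, *cav*, *Mcm7*, *PCNA*, *ImpE2*, *ftz-f1* and the cell markers fall outside this rule and were chosen after their values were seen. *XRCC1*, *Parp1* and *RecQ5*, among the lowest called genes of their lists, were also picked with their values known. Alternatives were other scaling, other filters, DESeq2 1.42.0, voom in limma 3.58.1, no minimum fold change, glmTreat, a replicate block and leaving out each library. Between replicates, counts varied beyond sampling noise (chi-square over degrees of freedom from 16.0 to 166), and all 6 libraries were kept. Nothing says that the pools came from separate cultures, so p-values measure only the spread between pools, which may be technical.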

Additional observations from a re-analysis of the deposited data

How the results depend on the processing

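All 6 genes were called higher under each of 16 alternatives, with log2 fold changes of 2.14 to 2.27 for *Irbp*, 1.80 to 1.87 for *Ku80*, 1.48 to 1.58 for *Lig4*, 1.35 to 1.43 for *mre11*, 1.36 to 1.43 for *rad50* and 1.85 to 1.94 for *nbs*, and the highest adjusted p of any was 0.000108. Deviations of same-numbered replicates had correlations of -0.18, 0.02 and -0.02, and those of differently numbered replicates ranged from -0.19 to 0.21. With 3 libraries per group these values cannot decide whether the numbers mark a shared batch. With the replicate as a block 1213 genes were higher and 863 lower, against 1219 and 890 without it, and all 6 calls were kept. Genes called higher were 1873 with filterByExpr, 1950 with no filter and 2641 with no minimum fold change, where 2585 were lower. With no minimum fold change the lists held 10 higher genes of homologous recombination, 3 higher and 2 lower of damage signalling, 2 higher and 2 lower of telomere capping and 2 higher of replication. In glmTreat 2 genes of homologous recombination were higher and 0 of damage signalling were lower. Without 1 library, genes called higher were 1163 to 1314 and lower 842 to 955, and higher genes of homologous recombination 3 to 6. Leaving out each library was added for the ratios after seeing the data, and the log2 difference was 0.29 to 0.43 for *Irbp* over *Ku80*, 0.47 to 0.56 for *nbs* over *mre11*, 0.48 to 0.53 for *nbs* over *rad50* and -0.0278 to 0.0192 for *mre11* over *rad50*, whose sign changed. Depth limits none of the 6 genes, at 1021 counts or more in every library.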
